A study of Mus musculus with 38 samples.

Results

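The genes described here are 10 genes of intermediate filament proteins, Vim, Nes, Des, Krt7, Krt8, Krt18, Krt19, Krt20, Krt80 and Lmna, of 21705 genes measured by RNA sequencing in mouse kidney, in kidney tumours of engineered mice and in cell lines grown from such tumours. They were selected on measured signal, since Krt20 signal was higher in tumours than in normal kidney and Krt19 and Vim signal differed between the cell lines. Every comparison of tumours with kidney and of one line with another is therefore given as a description, with no test and as support for nothing. The tests concern doxycycline (Dox) within each line, the difference of that change between lines, and tumours of one genotype against another.

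The study asked how Vhl loss and Ink4a/Arf loss combine with MYC in kidney tumours. Of 38 libraries, 5 came from normal kidney of wild-type mice given vehicle, 2 with titles starting B6 and 3 with titles starting KT. MYC mice carried Ksp-rtTA and Tet-O-MYC, so that Dox turns on MYC where the Ksp (cadherin 16) promoter is active, the renal tubule; 3 MYC tumour libraries came from 2 mice, with replicates 2 and 3 both from mouse 2983. VM mice carried in addition KspCreERT2 and Vhl F/F, with Vhl deleted after tamoxifen, and VIM mice also lacked Ink4a/Arf (Cdkn2a) in the germline; each gave 3 tumour libraries from mice kept on Dox. The cell groups were 1 line per genotype, with 4 libraries kept on Dox at 2 µg/ml and 4 from which Dox was withdrawn, collected 24 h after plating, and the MYC line bore the number of mouse 2983 and the VM line that of mouse 3055, the source of VM tumour replicate 2. Beyond the B6 titles, strain was not given in the sources used here, nor was age at collection.

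Intermediate filaments are rope-like polymers that give cells mechanical strength, and their proteins fall into types that are used in different tissues. Epithelia build keratin filaments from obligate pairs of a type I and a type II keratin, simple epithelia such as kidney tubule and collecting duct use mainly Krt8 with Krt18 and Krt19 or Krt7, and mesenchymal cells use vimentin. Lamins form the meshwork under the inner nuclear membrane in nearly every cell.

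Values are RSEM gene estimates scaled by the authors to an upper quartile of 1000 units per library, and are called signal. Depth estimated from the step between low values was 12.4 to 36.6 M reads in cell libraries and 8.22 to 15.5 M in tissue libraries, and a signal worth 3 reads, 1.16 to 5.65 units by library, was taken as the floor of detection. Cells with and without Dox, and tumours of different genotype, were compared by limma on log2(value+1), two-sided, with Benjamini-Hochberg adjustment over all genes tested. A gene passed at an adjusted p under 0.05 and a log2 change beyond 1, and for a difference between lines at an adjusted p under 0.05. Nothing in the labels says that the 4 libraries of a cell group were separate cultures, so p-values measure the spread between these libraries, which may be technical. The S numbers in the titles restart between MYC cells and the VM and VIM cells and again in tissue. The MYC line and its handling, and cells and tissue, thus cannot be told apart, whereas VM and VIM cells share 1 run of S numbers. The J numbers in the titles do not restart, with 1 to 22 in tissue, 31 to 38 in VM, 47 to 54 in VIM and 55 to 63 in MYC cells. The titles do not say what either number stands for.

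The engineered genes served as a check of the labels. Vhl signal was 772, 661, 744, 638 and 612 units in normal kidney and 559.7, 471 and 468 in MYC tumours. It was 79.9, 40.2 and 40.7 units in VM tumours and 226, 219 and 312 in VIM tumours, both below every kidney and MYC tumour library. In cells, Vhl was 433 to 543 units in the MYC line, 10.3 to 38.8 in the VM line and 8.32 to 24.9 in the VIM line. Cdkn2a was 4298, 4347 and 3392 units in VM tumours and 33.9, 30.1 and 95.5 in VIM tumours, and 3473 to 5701 in VM cells against 24.9 to 40.8 in VIM cells. MYC tumours held 108, 2872 and 59.3 units of Cdkn2a, so that 1 of 3 libraries lay far above the others, and kidney held 1.73, 0, 1.34, 0 and 3.79. Mouse Myc signal was lower with Dox in every line, with a mean of 676 units against 1831 in MYC cells, and the sources do not say whether transgene reads count towards it, so Myc does not check the Dox label. Vhl was lower in each Vhl-deleted group than in kidney and MYC tumours. Cdkn2a was lower in VIM than in VM tumours and cells, but kidney with intact Cdkn2a lay below VIM tumours, and MYC tumour replicate 3 (59.3 units) below VIM tumour replicate 3 (95.5 units), so its level alone does not mark the deletion.

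Vim encodes vimentin, the type III filament protein of mesenchymal cells (chromosome 2, 13495554 to 13504453, plus strand; mm9, as are all gene positions). Vim signal was 417, 537, 527, 562 and 831 units in the 5 kidneys, 1046, 2522 and 5363 in MYC tumours, 1309, 707 and 1238 in VM tumours and 1847, 2653 and 1129 in VIM tumours. The lowest kidney was below every tumour, and the highest kidney, replicate 5, overlapped VM tumours. In bulk tissue, fewer cells of a type and less RNA per cell cannot be told apart. In MYC cells Vim was 24519, 23425, 23625 and 26023 units with Dox and 53843, 52204, 54509 and 56092 without. In VM cells it was 9695, 10524, 9240 and 9391 with Dox and 28160, 30729, 29236 and 28686 without. All cell libraries lay above all tissue libraries, and the lines kept apart within each Dox state. In VIM cells Vim was 32634, 34020, 34760 and 34065 units with Dox and 78462, 75439, 77019 and 81851 without, the highest of the 10 groups. By mean log2 signal the order was VIM cells without Dox, MYC cells without Dox, VIM cells with Dox, VM cells without Dox, MYC cells with Dox and VM cells with Dox, each separate from the next. MYC, VIM and VM tumours and kidney followed, and these neighbours overlapped.

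Dox lowered Vim in each line, with the 4 libraries with Dox below the 4 without. The log2(value+1) change was −1.15 (SE 0.0378) in MYC cells, with an adjusted p of 4.56e-15 by limma. It was −1.59 (SE 0.0534) in VM cells, with an adjusted p of 2.25e-14 by limma, and −1.21 (SE 0.0394) in VIM cells, with 3.91e-17. The median of all tested genes also moved, by −0.13 in MYC cells, −0.26 in VM cells and −0.15 in VIM cells, and relative to it Vim changed by −1.02, −1.33 and −1.05. After quantile normalization, which makes the libraries' distributions equal, Vim was at −0.59 in MYC cells and −0.65 in VIM cells and no longer passed. The fall was larger in VM than in MYC cells (difference −0.44, adjusted p 1.56e-05 by limma) and smaller in VIM than in VM cells (difference 0.38, adjusted p 0.000125). These differences depend on scaling, with −0.93 and 0.89 after quantile normalization, and passed under each alternative.

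Des encodes desmin, the type III filament protein of muscle and pericytes (chromosome 1, 75356904 to 75365154, plus strand; Gm15179 overlaps it on the other strand, and strand use in counting was not stated, so reads of the 2 cannot be told apart). Des signal was 144, 146, 123, 149.8 and 272 units in the kidneys, replicate 5 standing apart, and 51.3, 187 and 15.5 in MYC tumours. It was 50.6, 9.28 and 13.6 units in VM tumours and 18.8, 46.4 and 22 in VIM tumours, below every kidney, while MYC tumour replicate 2 lay within the kidney range. In cells Des was far below kidney, while MYC cells without Dox overlapped VM tumours. It was 5.59, 4.89, 5.42 and 4.72 units in MYC cells with Dox and 7.22, 11.8, 14.5 and 11.4 without. All 16 libraries of the VM and VIM lines lay at or under the floor, so no Dox change was given for them. Des in MYC cells without Dox was at least 4.25-fold higher than in VM cells and at least 3.36-fold higher than in VIM cells, both taken against the highest floor of the low group. The Dox change in MYC cells was −0.96 (SE 0.237), with an adjusted p of 0.00135 by limma, short of the size limit. It passed at −1.07 with a pseudocount of 0.1, at −1.07 with voom on estimated reads and at −1.14 without MYC cells without Dox replicate 1, which had 7.22 units. The difference in Dox change for VIM against MYC cells was 1.11 (adjusted p 0.0648 by limma), a fitted value that rests on libraries under the floor. For VM against MYC cells it was 0.63 (adjusted p 0.16 by limma). Both passed with a pseudocount of 10 (0.49 and 0.44), and that for VIM also without 1 of 4 libraries, namely MYC cells without Dox replicate 1, VIM cells with Dox replicate 3 or 4, or VIM cells without Dox replicate 4 (1.28 to 1.46). Since Des was not measurable in VM and VIM cells, these differences say nothing of its response to Dox there.

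Nes encodes nestin, a large filament protein of progenitor cells, muscle, podocytes and endothelium that assembles with vimentin (chromosome 3, 87775000 to 87784373, plus strand). Its signal was 284, 453, 323, 476 and 896 units in kidney, 257, 917 and 3391 in MYC tumours, 214, 804 and 503 in VM tumours and 362, 1199 and 110.1 in VIM tumours, and each tumour group overlapped kidney. In cells Nes was 13599, 13568, 12784 and 15775 units with Dox and 32959, 32490, 32394 and 34602 without in the MYC line. It was 5837 to 6611 with Dox and 11260 to 13469 without in VM cells, and 7667 to 8361 against 19623 to 21243 in VIM cells. Every cell library was above every tissue library, and MYC cells without Dox were highest, with 33111 ± 1024 units (SD, n = 4). Nes fell with Dox in MYC cells, with a log2 change of −1.25 (SE 0.0481; limma adjusted p 3.93e-14), and in VIM cells, with −1.34 (SE 0.0359; adjusted p 1.49e-18). In VM cells the change was −0.97 (SE 0.0574; adjusted p 3.92e-11 by limma), just inside the size limit, and it passed at −1.004 without VM cells with Dox replicate 2 (6611 units) and at −1.01 without VM cells without Dox replicate 3 (11260 units). Set against the median of all genes, the Nes values were −1.12, −0.72 and −1.19 in MYC, VM and VIM cells. The difference between lines was −0.37 for VIM against VM cells (adjusted p 0.00037 by limma) and 0.28 for VM against MYC cells (adjusted p 0.00939), which were −0.17 and 0.01 after quantile normalization, the latter not passing. Quantile normalization also left Nes in MYC cells at −0.93, short of the limit.

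**Figure D1:**
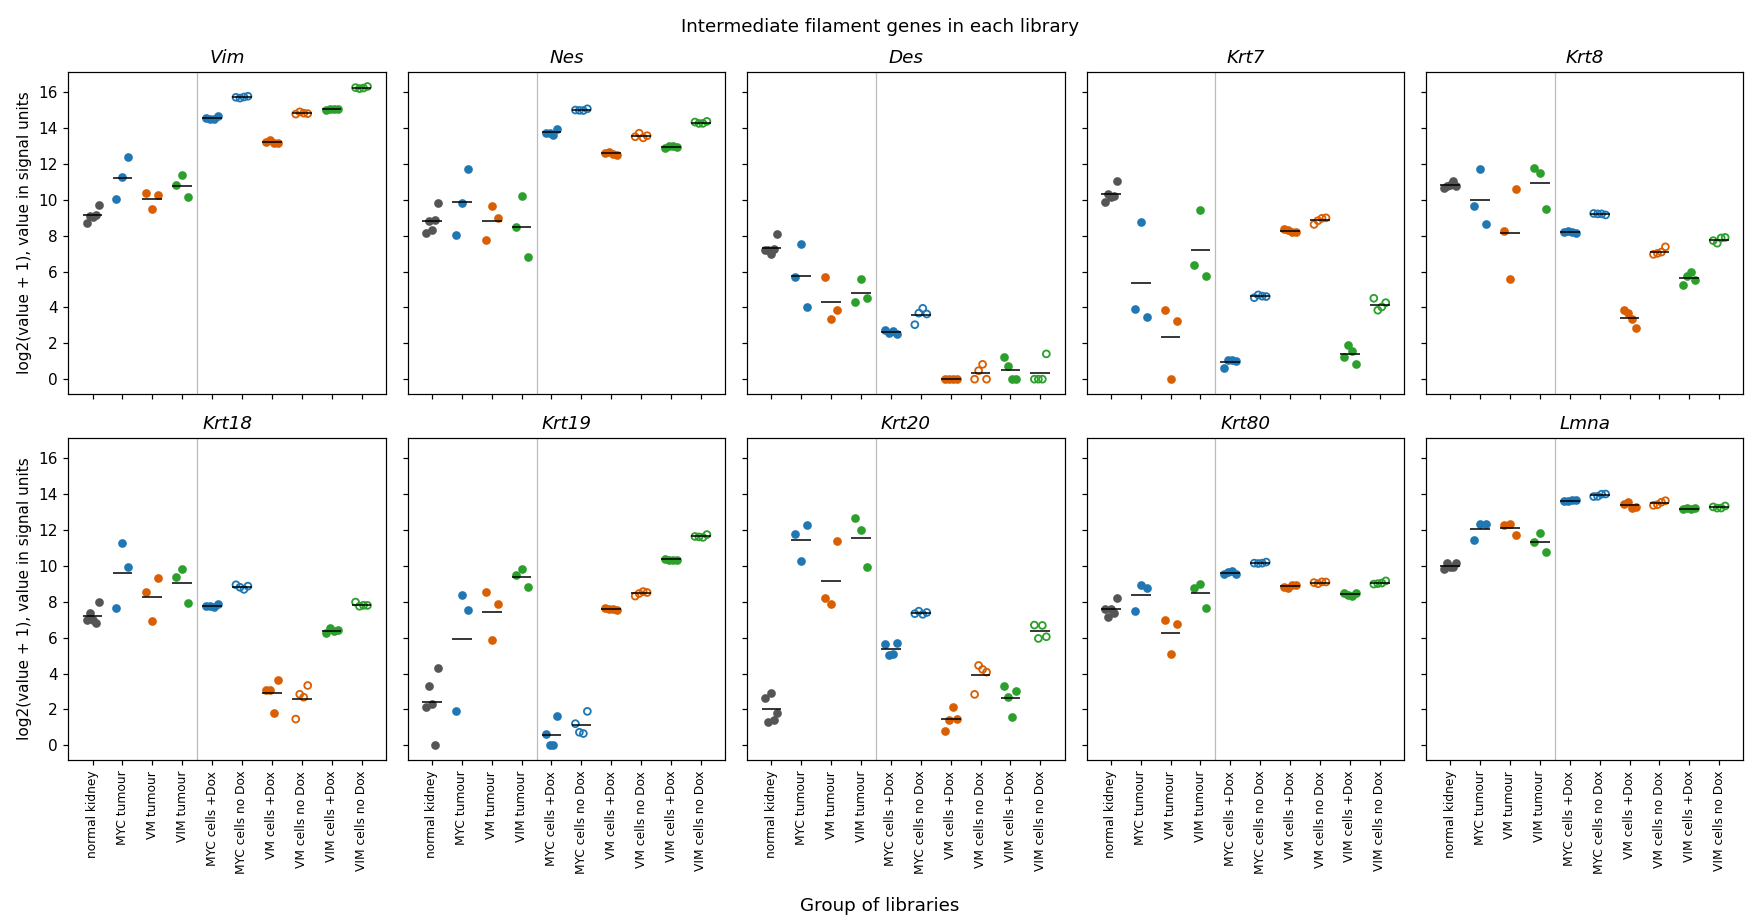
Signal of each of the 10 genes as log2(value+1) in each of 38 libraries, 1 panel per gene, with the 10 groups along the horizontal axis. Filled points are tissue libraries or cells with Dox, open points are cells without Dox, and black lines are means of the libraries. Vim, Nes and Lmna are higher in every cell group than in tissue, Krt20 is high in tumours and low in kidney, and Krt19 is lowest in MYC cells.

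Krt7 encodes a type II keratin of ducts and collecting duct (chromosome 15, 101241474 to 101260744, plus strand). Krt7 signal was 926, 1308, 1158, 1187 and 2092 units in kidney, above all other libraries. It was 14, 438 and 9.89 units in MYC tumours, 13.3, 0 and 8.63 in VM tumours and 82.9, 678 and 53.2 in VIM tumours. Each tumour genotype but VM had 1 library far above its other 2, and VM tumour replicate 2, of mouse 3055 as the VM line, was at 0. Among cells, the VM line held 331, 320.0, 295 and 295 units with Dox and 395, 457, 501 and 510.4 without. MYC cells held 0.559, 1.09, 1.08 and 1.05 units with Dox, all at or under the floor, and 22.3, 25, 23.7 and 23.4 without. VIM cells held 1.39, 2.77, 1.97 and 0.808 units with Dox, 3 of 4 at or under the floor, and 21.8, 13.4, 15.3 and 18.2 without. The VM line thus lay above both other lines in either Dox state, by at least 185-fold against MYC cells with Dox. Parts of the Krt7 transcript resemble 913 other places in the genome, of which none covers most of it.

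Krt7 fell with Dox in MYC cells by at least 14.1-fold, and the fitted log2(value+1) change was −3.67 (SE 0.229; adjusted p 4.41e-11 by limma). In VIM cells the fitted change was −2.76 (SE 0.319; adjusted p 7.55e-08), and in VM cells −0.58 (SE 0.0796; adjusted p 3.18e-06), which did not pass the size limit. These stood at −3.54 in MYC, −2.61 in VIM and −0.32 in VM cells against the median of all genes. The change in VM cells differed from that in MYC cells by 3.09 (adjusted p 5.06e-11 by limma) and from that in VIM cells, as VIM against VM, by −2.18 (adjusted p 1.81e-06). As MYC and VIM cells with Dox were at or near the floor, these sizes depend on the pseudocount: with the alternatives the differences ran from 1.05 to 3.96 and from −2.75 to −0.64, and the changes from −4.54 to −1.62 in MYC and from −3.34 to −1.21 in VIM cells, all still past the threshold. VIM against MYC gave 0.91 (adjusted p 0.0371), a call that rested on low signal. It was lost with a pseudocount of 0.1 (adjusted p 0.0709), with TMM rescaling (adjusted p 0.063), with quantile normalization, and in 8 of 16 fits without 1 library, such as 0.73 without VIM cells with Dox replicate 2 (2.77 units) and 0.80 without MYC cells with Dox replicate 1 (0.559 units).

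Krt8 encodes the main type II keratin of simple epithelia (chromosome 15, 101827142 to 101834773, minus strand). Krt8 signal was 1618, 1752, 1807, 2106 and 1723 units in kidney and 812, 3421 and 395 in MYC tumours. It was 301, 46.4 and 1578 units in VM tumours, all below kidney, and 3454, 2920 and 723 in VIM tumours, on both sides of it. The tumour libraries spread far more than the kidneys did. In cells Krt8 was 291, 304, 291 and 287 units with Dox and 604, 594, 594 and 570.2 without in the MYC line, and 13.3, 11.9, 9.34 and 6.14 with Dox and 123, 128, 135 and 166 without in the VM line. VIM cells held 37.5, 52, 62.3 and 44.4 units with Dox and 211, 191, 234 and 239 without. In each line all libraries with Dox were below all without, and VM cells with Dox were the lowest of the 10 groups. The mouse genome holds 5 other places that resemble the Krt8 transcript, up to 97.9% identical, so how the counting split reads between them is uncertain.

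With Dox, Krt8 fell in VM cells by a log2 change of −3.68 (SE 0.204; limma adjusted p 1.7e-11) and in VIM cells by one of −2.15 (SE 0.137; adjusted p 3.85e-12). In MYC cells the change was −1.01 (SE 0.0403; adjusted p 7.21e-14 by limma), at the very edge of the size limit. It did not pass with a pseudocount of 10 (−0.99), TMM (−0.88) or quantile normalization (−0.90), nor without MYC cells with Dox replicate 4 (287 units; −0.997) or without MYC cells without Dox replicate 1 (604 units; −0.996). Taken from the median of all genes, the Krt8 changes were −3.42, −1.998 and −0.88 in VM, VIM and MYC cells. Each difference between lines passed: −2.67 for VM against MYC (adjusted p 2.38e-09 by limma), 1.53 for VIM against VM (adjusted p 0.000129) and −1.14 for VIM against MYC (adjusted p 1.33e-06). The last 2 were as small as 0.92 with a pseudocount of 10 and −0.70 with quantile normalization, and still passed.

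Krt80 encodes a type II keratin of stratified and other epithelia (chromosome 15, 101177875 to 101200556, minus strand; Mir1941 overlaps it on the other strand, with the same limit as for Des). Its signal was 144 to 302 units in kidney, 176, 483 and 438 in MYC tumours, 125, 33 and 106 in VM tumours and 444, 517 and 198 in VIM tumours. VM tumours lay below all kidneys, and MYC and VIM tumours overlapped them. Cells held 748 to 859 units with Dox and 1126 to 1193 without in the MYC line, 439 to 496 and 516 to 555 in the VM line, and 320.2 to 361 and 508 to 576 in the VIM line. The Dox change was −0.53 in MYC (adjusted p 6.83e-10 by limma), −0.20 in VM (adjusted p 0.00492) and −0.64 in VIM cells (adjusted p 2.13e-09), in each line too small to pass, although no library with Dox reached one without. Relative to the median of all genes it was −0.40, 0.06 and −0.48, so that in VM cells the direction turned, as it did with TMM (0.04). The differences between lines were −0.44 for VIM against VM (adjusted p 0.000208 by limma) and 0.34 for VM against MYC (adjusted p 0.000351).

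Krt18 encodes the type I partner of Krt8 (chromosome 15, 101858647 to 101862457, plus strand), 23873 bases from Krt8. Krt18 signal was 125, 168, 127, 111 and 252 units in kidney, 202, 2481 and 980.2 in MYC tumours, 368, 123 and 649.8 in VM tumours and 674, 907 and 240.5 in VIM tumours. Of the 9 tumour libraries, VM tumour replicate 2 was the lowest and MYC tumour replicate 2 the highest. In VM cells Krt18 was 7.39, 7.66, 2.55 and 11.4 units with Dox and 1.76, 6.20, 5.43 and 9.12 without, with 1 library of each group at or under the floor. The MYC line held 206 to 236 units with Dox and 414 to 495 without, and the VIM line 75.7 to 92.9 and 215 to 253. Krt18 fell with Dox in MYC cells (log2 change −1.07, SE 0.0591, limma adjusted p 7.69e-12) and in VIM cells (−1.44, SE 0.0971, adjusted p 1.1e-11). In VM cells the change was 0.33 (SE 0.417; adjusted p 0.494 by limma). Krt18 signal there was near the floor in both Dox states, so a fall could hardly be measured. Measured from the median of all genes, Krt18 was at −0.94 in MYC, −1.28 in VIM and 0.58 in VM cells.

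The Krt18 call in MYC cells was lost with TMM (−0.94) and quantile normalization (−0.93), and in VM cells quantile normalization gave 1.05 with an adjusted p of 0.0342 by limma. Without 1 library, the change in VM cells ranged from −0.05 without VM cells without Dox replicate 1 (1.76 units) to 0.69 without VM cells with Dox replicate 3 (2.55 units), and did not pass. The Krt18 change differed between lines by −1.76 for VIM against VM (adjusted p 0.00499 by limma), 1.39 for VM against MYC (adjusted p 0.0155) and −0.37 for VIM against MYC (adjusted p 0.00667). The last of these was −0.06 after quantile normalization and did not pass. The differences from VM cells rest on Krt18 signal near the floor in that line, so they do not show how it responds to Dox there. The genome holds 3 other places that resemble most of the Krt18 transcript, up to 90.5% identical, so its signal is uncertain in the same way as that of Krt8.

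Krt19 encodes the smallest type I keratin, found in ducts and collecting duct (chromosome 11, 100002124 to 100009979, minus strand). Krt19 signal was 3.46, 8.76, 4.02, 0 and 19 units in kidney, 3 of 5 at or under the floor. It was 2.80, 336 and 184 units in MYC tumours, 370.2, 58.8 and 231 in VM tumours and 736, 919.8 and 461 in VIM tumours. VM and VIM tumours were above every kidney, whereas MYC tumour replicate 1, from the mouse other than 2983, was at its floor. MYC cells held 0.559, 0, 0 and 2.10 units with Dox and 1.31, 0.658, 0.579 and 2.72 without, 3 of 4 at or under the floor in each. VM cells held 205, 191, 197 and 189 units with Dox and 319, 353, 381 and 367 without, and VIM cells 1347, 1314, 1302 and 1305 and 3207, 3154, 3093 and 3449. The MYC line thus had next to no Krt19, although the tumour libraries of mouse 2983 had 336 and 184 units.

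In VIM cells Krt19 fell with Dox, with a log2 change of −1.29 (SE 0.0353; limma adjusted p 2.21e-18). In VM cells the change was −0.86 (SE 0.0747; adjusted p 8.8e-09 by limma), with no overlap of the 2 groups but short of the size limit. In MYC cells both groups were mostly at or under the floor, and the adjusted p was 0.243. Set against the median of all genes, Krt19 stood at −1.14 in VIM and −0.60 in VM cells. The change was larger in VIM than in VM cells (difference −0.44, adjusted p 5.47e-05 by limma; −0.68 after quantile normalization). Against MYC cells the difference was −0.74 for VIM (adjusted p 0.127 by limma) and −0.30 for VM cells (adjusted p 0.598). With 3 of 4 libraries of each MYC group at or under the floor, these differences depend on the pseudocount, from −1.199 to 0.50 and from −0.74 to 0.93. Both passed with a pseudocount of 10 (adjusted p 2.47e-08 and 0.000105 by limma), and that for VIM also after quantile normalization (−1.09) and without MYC cells without Dox replicate 4 (−0.99). Since Krt19 was barely measurable in MYC cells, none of these values compares the lines.

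Krt20 encodes a type I keratin of gut and urothelium (chromosome 11, 99289717 to 99299464, minus strand), 702659 bases from Krt19. Krt20 signal was 5.19, 1.46, 6.69, 1.63 and 2.53 units in kidney, 4 of 5 at or under the floor. It was 3515, 1231 and 5032 units in MYC tumours, 302, 237 and 2745 in VM tumours and 6505, 4175 and 977 in VIM tumours, so that every tumour was above every kidney and every cell library, which the choice of genes rests on. In cells Krt20 was 48.6, 32.1, 33.6 and 50.8 units with Dox and 161, 178, 157 and 169 without in the MYC line. VM cells held 0.739, 1.70, 3.40 and 1.75 units with Dox, 3 of 4 at or under the floor, and 6.17, 20.9, 17.8 and 16 without, and VIM cells 9.02, 5.55, 1.97 and 7.27 and 103, 61.3, 102 and 65.5. Libraries with Dox were below those without in every line. Krt20 was thus lower in each line than in tumours of the same genotype, in both Dox states.

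Krt20 fell with Dox in all 3 lines. The log2(value+1) change was −2.01 in MYC cells (SE 0.134; adjusted p 1.21e-10 by limma), −2.45 in VM cells (SE 0.375; adjusted p 1.2e-05) and −3.69 in VIM cells (SE 0.303; adjusted p 3.13e-10). Relative to the median of all genes it was −1.88, −2.19 and −3.54. The fall was larger in VIM than in MYC cells (difference −1.68, adjusted p 0.00108 by limma), a difference that was −0.95 and did not pass after quantile normalization and was −0.73 with a pseudocount of 10, which also left the change in VM cells at −1.05. For VM against MYC cells the difference was −0.43 (adjusted p 0.432 by limma). Over the alternatives it ran from −0.94 to 0.75, with a lowest adjusted p of 0.0102 by limma. For VIM against VM cells the difference was −1.24 (adjusted p 0.0794 by limma). It passed with a pseudocount of 10 (−1.48), and at −1.46 without VM cells with Dox replicate 1 (0.739 units) or without VIM cells with Dox replicate 1 (9.02 units), while 3 of 4 VM libraries with Dox were at or under the floor.

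Lmna encodes lamins A and C of the nuclear lamina (chromosome 3, 88285070 to 88313878, minus strand). Lmna signal was 899.7, 1146, 979.9, 982 and 1166 units in kidney, 2831, 5144 and 5112 in MYC tumours, 4959, 5268 and 3409 in VM tumours and 2621, 3719 and 1781 in VIM tumours, and every tumour was above every kidney. Cells held 12403 to 13120 units with Dox and 15016 to 16549 without in the MYC line, 9726 to 12171 and 10671 to 12787 in the VM line, and 9112 to 9490 and 9591 to 10434 in the VIM line. The Dox change was −0.30 in MYC (adjusted p 2.74e-07 by limma), −0.10 in VM (adjusted p 0.202) and −0.09 in VIM cells (adjusted p 0.0209), and none passed. Relative to the median of all genes these were −0.17, 0.15 and 0.07, and TMM likewise gave 0.13 in VM and 0.07 in VIM cells. The change differed between VIM and MYC cells by 0.21 (adjusted p 0.00108 by limma). After quantile normalization this difference was −0.00157 and did not pass. For VM against MYC cells the difference was 0.20 (adjusted p 0.0761 by limma), and it passed with voom on estimated reads, at 0.25 without VM cells with Dox replicate 3 (9726 units) or without VM cells without Dox replicate 4 (12787 units), and at 0.23 without VM cells with Dox replicate 4 (10061 units).

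Over the 10 genes, Dox lowered 6 of 10 in MYC cells (Vim, Nes, Krt7, Krt8, Krt18 and Krt20) where 15% of 15104 tested genes fell, and raised 0 where 4.49% rose. In VM cells 3 of the 9 tested genes fell (Vim, Krt8 and Krt20) where 18.9% of all genes fell, and 0 rose where 5.92% rose. In VIM cells 7 of 9 fell (all but Krt80 and Lmna) where 16.6% fell, and 0 rose where 7.67% rose. The median change of the tested members was −1.04 in MYC, −0.86 in VM and −1.34 in VIM cells, beside −0.13, −0.26 and −0.15 over all genes. At an unadjusted p under 0.05 the members with a higher value with Dox numbered 0 in each limma test, and by voom on estimated reads 0 members rose, while Krt18 passed upwards in VM cells after quantile normalization. The balance of calls over all genes depends on scaling: in MYC cells 678 genes rose and 2264 fell, 23% higher, against 32.5% with TMM and 42.1% with quantile normalization. In VM cells 847 rose and 2707 fell, 23.8% higher, against 40.5% and 49.4%, and in VIM cells 1074 rose and 2322 fell, 31.6% higher, against 43.5% and 49.5%. With TMM 4 members and with quantile normalization 2 members passed in MYC cells, where 2768 and 2551 of 15104 genes passed.

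The change with Dox differed between VIM and VM cells for 7 of the 10 members tested, where 33.3% of 15180 genes passed. It differed between VM and MYC cells for 6 members where 46.2% passed, and between VIM and MYC cells for 5 where 47.6% passed, which is near the share over all genes. After quantile normalization, Krt7, Krt18, Krt20 and Lmna no longer passed for VIM against MYC, while Krt19 came to pass. For VIM against VM, 68.4% of the passing genes were higher, against 40.0% with TMM and 54.8% with quantile normalization. For Vim, Nes, Krt7, Krt8, Krt18 and Krt80 the change in VM cells differed from that in both other lines, except that for Nes the difference from MYC cells was lost after quantile normalization. Krt18 in VM cells was near the floor, with means of 7.25 units with Dox and 5.63 without, so a fall there could hardly be measured.

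**Figure D2:**
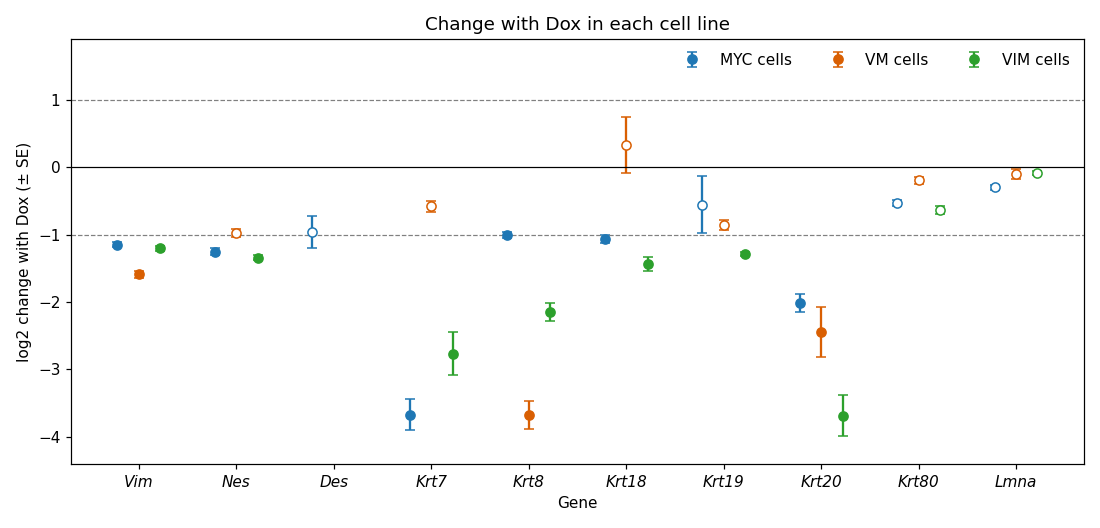
Log2(value+1) change of each gene with Dox against without, on the vertical axis, with the genes along the horizontal axis and 1 colour per line; bars are standard errors, filled points passed the test and dashed lines mark a log2 change of 1 in either direction. The lowest point is that of Krt7 in MYC, Krt8 in VM and Krt20 in VIM cells, and Krt80 and Lmna stay within the dashed lines in all 3 lines.

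Between tumours of different genotype, 0 of 10 members passed in any of the 3 comparisons by limma or by voom on estimated reads. At an unadjusted p under 0.05 there were 6 members in VIM against VM (Krt7, Krt8, Krt19, Krt20, Krt80 and Lmna), 1 in VM against MYC (Krt80) and 1 in VIM against MYC (Krt19). In VIM against VM tumours 40 of 16096 genes passed (0.249%), 28 higher and 12 lower, with 1831 at an unadjusted p under 0.05, and voom on estimated reads called 15 with 1902. This count rests on single libraries: 2 passed, 0 higher and 2 lower, without VIM tumour replicate 1 or without VM tumour replicate 2, 3 without VIM tumour replicate 2, 7 without VM tumour replicate 3, 17 without VM tumour replicate 1 and 45 without VIM tumour replicate 3. In VM against MYC tumours 0 of 16085 passed (0%), with 2110 at an unadjusted p under 0.05 and 0 and 2251 by voom. In VIM against MYC tumours 1 of 16246 passed (0.00616%), Ftcd, with 2361 at an unadjusted p under 0.05 and 0 and 2490 by voom. The largest difference among members was that of Krt7 in VIM against VM tumours, 4.82 (SE 1.26; adjusted p 0.19 by limma), followed by Krt19 in VIM against MYC tumours, 4.46 (adjusted p 0.297). Krt80 differed by 2.22 (adjusted p 0.21) and Krt19 by 1.98 (adjusted p 0.288) in VIM against VM tumours. The median member difference was 1.38, −1.18 and −0.04 in VIM against VM, VM against MYC and VIM against MYC, beside 0.08, −0.13 and −0.06 over all genes. Without the mouse 2983 tumours (Krt19 336 and 184 units), Krt19 in VIM against MYC was 7.48 with an adjusted p of 0.012 by limma, from a lone MYC mouse (2.80 units) assumed to vary like the others.

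Against kidney, members were described by whether all values of the 2 groups lay apart with a log2 difference over 1, with the 2 libraries of mouse 2983 averaged on the log2 scale, so that MYC tumours had 2 values. In MYC tumours 5 of 10 did, where 38.6% of 16491 genes did: Vim 1.81, Krt20 9.51 and Lmna 1.89 higher, and Des −1.58 and Krt7 −5.32 lower. With the 3 MYC libraries kept separate Des did not lie apart (−1.56), since replicate 2 (187 units) was within the kidney range. In VM tumours 7 of 10 did, where 36.6% did: Krt19 5.01, Krt20 7.17 and Lmna 2.12 higher, and Des −3.03, Krt7 −7.96, Krt8 −2.67 and Krt80 −1.33 lower. In VIM tumours 6 of 10 did, where 36.4% did: Vim 1.66, Krt19 6.99, Krt20 9.53 and Lmna 1.33 higher, and Des −2.53 and Krt7 −3.14 lower. These comparisons share the kidney libraries. Krt20 and Krt19 in kidney were at or near the floor, so their differences depend on the pseudocount. Without MYC tumour replicate 1 (Nes 257, Krt19 2.80 units) the only MYC value was the mouse 2983 mean. Differences were then 1.98 for Nes, 3.38 for Krt18, 5.55 for Krt19 and 1.25 for Krt80. A lone value lies outside the kidney range more easily than 2 values, so which members lay apart is not read from it. Without MYC tumour replicate 3 (Des 15.5 units) Des was −0.70, and without the mouse 2983 mean (replicates 2 and 3) Vim was 0.90. Without VM tumour replicate 2 (Krt80 33, Krt18 123 and Vim 707 units) Krt80 was only −0.74, whereas Krt18 (1.70) and Vim (1.18) lay apart. Without VIM tumour replicate 3 (Krt18 240.5 and Krt80 198 units) Krt18 (2.38) and Krt80 (1.31) did. Without kidney replicate 5 (Krt18 252, Vim 831 and Krt80 302 units) Krt18 lay apart in MYC (2.09) and VIM tumours (2.003), Vim in VM tumours (1.04) and Krt80 in VIM tumours (1.04). With mouse 2983 averaged, Krt8 lay apart in MYC tumours with TMM (−1.002), although replicate 2 (3421 units) was above every kidney, and in VM tumours Krt8 did not lie apart with TMM or quantile normalization. The median member difference was 1.2, 0.445 and 1.11 in MYC, VM and VIM tumours, beside 0.07, −0.05 and 0.01 over all genes.

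Markers of other cell types moved with the tissue groups. The 5 markers of the collecting duct list, with Calb1 the most abundant in kidney, summed to 12246, 15444, 15744, 13858 and 20598 units in the kidneys, 5.60, 52.5 and 2.82 in MYC tumours, 3.99, 4.12 and 2.47 in VM tumours and 7.53, 1723 and 22 in VIM tumours. Calb1, known also and more widely from the distal convoluted and connecting tubule, averaged 10325 units in kidney, so this sum is not one of collecting duct alone there. Aqp2, the water channel of principal cells, averaged 2085 units in kidney and 3.60, 0 and 157 in MYC, VM and VIM tumours. The same VIM tumour replicate 2 had the highest Krt7 of its group, and Aqp2 and Scnn1g were at 0 in VM tumours. The 6 proximal tubule markers, with Slc34a1 most abundant in kidney and Lrp2 in tumours, summed to 197775 to 232446 units in kidney and 1773 to 10506 in tumours. Their part in the lower Krt7 of tumours was not tested.

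The 6 pericyte and smooth muscle markers summed to 2376 to 4844 units in kidney, 2235, 6937 and 6424 in MYC tumours, 4084, 2999 and 2190 in VM tumours and 2245, 3378 and 2539 in VIM tumours. Tagln was the most abundant of them in kidney, with a mean of 717 units, and Cspg4 in tumours, with 2365, 2189 and 1511 units in MYC, VM and VIM tumours against 425 in kidney. The sum overlapped kidney in every tumour group, and its genes did not move together, as Myh11 averaged 408 units in kidney and 56.1, 15.3 and 30.3 in MYC, VM and VIM tumours. The 5 endothelial markers, led by Emcn in kidney, summed to 3965, 3194, 3410, 4138 and 5357 units in the kidneys and to 601, 1480 and 194.9 in MYC, 2059, 259.8 and 559 in VM and 456, 711 and 951 in VIM tumours. The 6 fibroblast markers, led by Col1a2, summed to 1272, 2114, 910.3, 1557 and 3208 units in kidney and 886, 8052 and 753 in MYC, 1261, 491 and 634 in VM and 778, 2039 and 1584 in VIM tumours. The 6 leukocyte markers summed to 1339 to 2328 units in kidney, led by Csf1r, and to 2247 to 15670 in tumours, led by Lyz2. The 4 tubule injury markers, led by Spp1, summed to 8987 to 38259 units in kidney and 61834 to 241285 in tumours, and the 5 urothelium markers to 4.02 to 26.6 and 1.87 to 170.

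Kidney replicate 5 was highest of the 5 kidneys for Vim, Nes, Des, Krt7, Krt18, Krt19, Krt80 and Lmna and also for the endothelial, pericyte, fibroblast, leukocyte, collecting duct, kidney epithelium, urothelium and injury sums. MYC tumour replicate 2 was highest of its group for Des, Krt7, Krt8, Krt18, Krt19, Krt80 and, by a small margin (5144 against 5112 units), Lmna and for the fibroblast, endothelial, pericyte, kidney epithelium, collecting duct (52.5 units against 5.60 and 2.82) and urothelium sums (170 against 1.87 and 5.65). The part of these cell types in Vim, Nes, Des and the keratins was not tested. In cells, the endothelial sum was at most 12.5 units, and the pericyte and smooth muscle sum was 32452 to 38731 units with Dox and 122413 to 129854 without in the MYC line, where Des was also highest among cells. The same sum was 1046 to 1284 and 2122 to 2456 units in VM cells and 2749 to 3377 and 15829 to 17754 in VIM cells, with Rgs5 at 0 in all cell groups but VIM cells without Dox. The fibroblast sum, led by Col1a2, was 155 to 212 units with Dox and 835 to 985 without in MYC cells, 85.7 to 109.8 and 628 to 709 in VM cells and 21.8 to 30.2 and 129.6 to 175 in VIM cells, with Thy1 at 0 in VM and VIM cells, Lum at 0 in VM cells and in VIM cells with Dox, and Dcn at 0 in VIM cells with Dox. The injury sum, led by Spp1, was 36525 to 39163 and 94591 to 99005 units in MYC cells, 14826 to 15750 and 64306 to 74737 in VM cells and 37102 to 38241 and 72438 to 77979 in VIM cells. The leukocyte sum, led by Csf1r and with Emr1 at 0 in all cells, was 218 to 254 and 439 to 469 units in MYC cells, 361 to 403 and 940.0 to 1006 in VM cells and 287 to 314 and 370.1 to 445 in VIM cells. The kidney epithelium markers, led by Cdh16, summed to 21223 to 31628 units in kidney and 8613 to 19132 in tumours, and with and without Dox to 11348 to 12893 and 16589 to 17587 in MYC cells, 6196 to 6367 and 13354 to 13840 in VM cells and 5889 to 6032 and 9937 to 10670 in VIM cells. The 4 skeletal muscle markers summed to 184 to 214 and 785 to 852 units in MYC cells, 11 to 25.5 and 26.4 to 38 in VM cells and 271 to 484 and 4079 to 4993 in VIM cells, led by Acta1 in MYC and VIM cells and by Mylpf in VM cells and with Myh4 at 0. These 6 sums were lower with Dox in every line, with no overlap, but not every marker list was. The proximal tubule sum, led by Lrp2, was 4545 to 5523 units with Dox and 6651 to 7889 without in MYC cells, but overlapped between Dox states in VM cells (4142 to 5559 and 5532 to 8265) and in VIM cells (3805 to 4428 and 4153 to 4912). The collecting duct and urothelium sums were at most 17.3 and 16.3 units in cells and overlapped as well. The part of these marker sums in the changes of the members was not tested.

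Between the cell lines with Dox, 5 of 9 members lay apart for VIM against VM, where 17.9% of 14060 genes did: Vim 1.80, Krt8 2.19, Krt18 3.49 and Krt19 2.75 higher, and Krt7 −6.88 lower. For VM against MYC 8 of 10 did, where 23.5% did, with Krt7 7.33 and Krt19 7.05 higher and Vim −1.33, Nes −1.17, Krt8 −4.77, Krt18 −4.86, Krt20 −3.91 and Des lower. For VIM against MYC 6 did, where 22.9% did, with Krt19 9.80 higher and Krt8 −2.58, Krt18 −1.37, Krt20 −2.71, Krt80 −1.21 and Des lower. Des was at or under the floor in VM and VIM cells and at least 1.96-fold and 2.13-fold lower there than in MYC cells, and with a pseudocount of 10 its difference was no longer over 1 (−0.60 and −0.53). Krt19 was at or under the floor in 3 of 4 libraries of MYC cells, so its size depends on the pseudocount, from 4.27 to 9.14 for VM and from 6.96 to 11.89 for VIM against MYC over the alternatives. Krt7 was under the floor in all MYC cells with Dox and at or under it in 3 of 4 libraries of VIM cells with Dox, and its difference ran from 4.87 to 8.25 for VM against MYC and from −7.52 to −4.77 for VIM against VM. Krt20 was under the floor in 3 of 4 libraries of VM cells with Dox, and its difference for VM against MYC ran from −4.52 to −2.09. Krt18 for VIM against MYC was −0.89 after quantile normalization, and Krt20 for VIM against VM lay apart at 1.57 without VIM cells with Dox replicate 3 (1.97 units) and at 1.43 without VM cells with Dox replicate 3 (3.40 units).

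Without Dox, 5 of 9 members lay apart for VIM against VM, where 20.3% of 14461 genes did: Vim 1.42, Krt18 5.26, Krt19 3.18 and Krt20 2.45 higher, and Krt7 −4.70 lower. For VM against MYC 8 of 10 did, where 23.9% did, with Krt7 4.24 and Krt19 7.35 higher and Des, Nes −1.45, Krt8 −2.10, Krt18 −6.25, Krt20 −3.48 and Krt80 −1.09 lower. For VIM against MYC 5 did, where 24.9% did, with Krt19 10.53 higher and Des, Krt8 −1.44, Krt20 −1.03 and Krt80 −1.11 lower. Krt20 in this last comparison did not lie apart by over 1 with TMM (−0.94) or quantile normalization (−0.68), nor without VIM cells without Dox replicate 2 (61.3 units; −0.90) or 4 (65.5 units; −0.93). Krt18 lay apart in the same comparison at −0.997, just short of the size limit, and ran from −1.05 to −0.86 over the alternatives. Vim for VIM against VM was 0.95 after quantile normalization. With Dox the median member difference was 1.21, −1.25 and −1.005 for VIM against VM, VM against MYC and VIM against MYC, beside 0.02, −0.19 and −0.18 over all genes, and without Dox 0.74, −1.27 and −0.85 beside −0.07, −0.10 and −0.20. These medians include fitted values for libraries at or under the floor, as for Des in VM and VIM cells, Krt7 in MYC and VIM cells with Dox, Krt20 in VM cells with Dox and Krt19 in MYC cells, which depend on the pseudocount and are no bounds. The choice of genes used these comparisons, so nothing is read from the counts.

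Beside the tumours of the same genotype, cells with Dox were higher for Vim, Nes and Lmna in all 3 genotypes, with no overlap. Krt80 was higher in MYC and VM cells, Krt7 in VM cells and Krt19 in VIM cells. Tumours were higher for Des and Krt20 in all 3 genotypes, for Krt8 in all 3, for Krt7 in MYC and VIM, for Krt18 in VM and VIM and for Krt19 in MYC. For Krt19 the lowest MYC tumour (2.80 units) was at its floor, and MYC cells with Dox reached 2.10 units. The share of all genes that lay apart between cells and tumours is not given here, so nothing is read from how many members did. Cells and tissue were handled apart, and which of the differences came with culture cannot be told apart from handling.

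Levels of different genes were compared per kilobase of the longest transcript. In kidney Krt8 was highest with 998 ± 102 units per kilobase (SD, n = 5), followed by Lmna with 328, Krt7 with 326 and Vim with 262. With the union of exons as length Krt8 was again highest, but the order after it was Vim with 246, Lmna with 243 and Krt7 with 189, so the ranks of these 3 depend on the length used. Krt20 was highest in MYC tumours with 1692 ± 993 (SD, n = 3 libraries) and in VIM tumours with 2016 ± 1440 (SD, n = 3), and Lmna in VM tumours with 1440 ± 316 (SD, n = 3). In all 6 cell groups Vim was highest, with 11125 and 24698 units per kilobase in MYC cells with and without Dox, 4429 and 13316 in VM cells and 15445 and 35656 in VIM cells. The tumour ranks are those of the group means and did not hold in every library, since Krt8, Krt18, Lmna and Vim were above Krt20 per kilobase in MYC tumour replicate 2, and Lmna and Vim in VIM tumour replicate 3 (there not with the union of exons), and since Krt20 was above Lmna in VM tumour replicate 3. Krt20 was the lowest of the 10 in kidney, with 1.82.

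Type I and type II keratins pair in filaments, so their sums per kilobase were set beside each other. The type II sum (Krt7, Krt8 and Krt80) over the type I sum (Krt18, Krt19 and Krt20) had a median of 12.5 in kidney, 0.253 in MYC tumours, 0.309 in VM tumours and 0.478 in VIM tumours. In cells with and without Dox it was 2.10 and 1.49 in the MYC line, 1.55 and 1.39 in the VM line and 0.128 and 0.115 in the VIM line. Among these 6 genes the type II sum was the higher in every library of kidney, MYC cells and VM cells, and the type I sum in every library of tumours and VIM cells. The sums leave out other keratins, among them the type I gene Krt17, whose signal, not per length, averaged 1049.9 and 2941 units in MYC cells with and without Dox and 253 and 544 in VM cells, so they do not give the balance of all keratins. The same 5 groups had the higher type II sum when the union of exons was used as length.

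**Figure D3:**
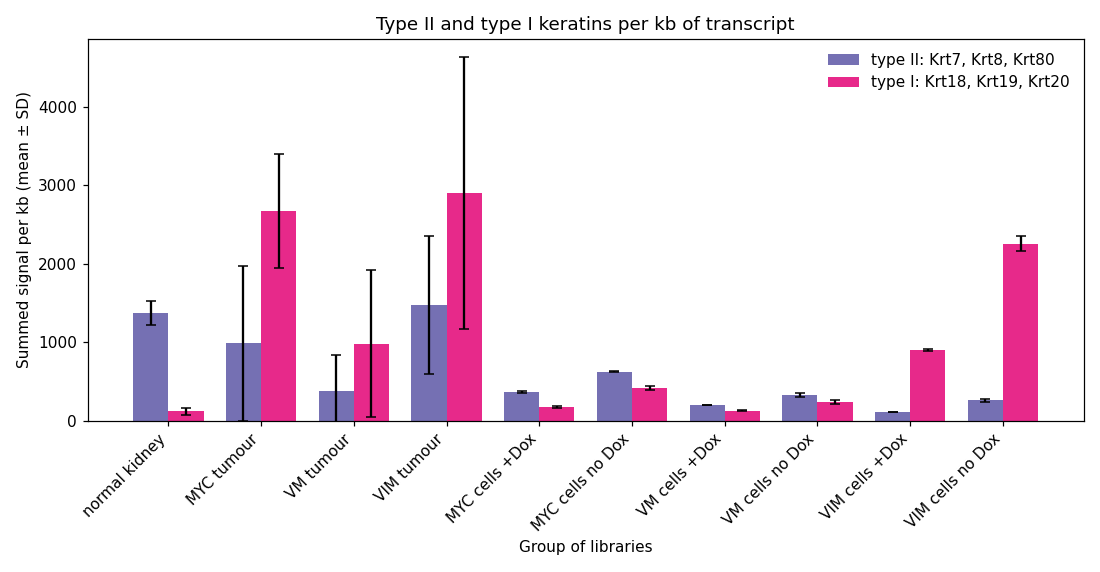
Summed signal per kilobase of the type II keratins Krt7, Krt8 and Krt80 and of the type I keratins Krt18, Krt19 and Krt20 on the vertical axis, with the 10 groups along the horizontal axis. Bars are means and error bars SD over libraries, with lower bars ended at 0. Kidney has 1375 ± 149 type II against 118 ± 45.3 type I, and VIM cells without Dox have 261 ± 18.8 against 2253 ± 95.3.

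Other genes of the filament and lamina system were taken from fixed lists. Of 45 other keratins, 10, 6 and 7 were tested in MYC, VM and VIM cells: with Dox 1 rose (Krt14) and 1 fell (Krt17) in MYC cells, 0 rose and 3 fell (Krt12, Krt17 and Krt25) in VM cells, and 0 rose and 1 fell (Krt17) in VIM cells. Over all tested genes 15%, 18.9% and 16.6% fell and 4.49%, 5.92% and 7.67% rose in the 3 lines, and with so few genes of each list tested nothing is read from their counts. Krt17, a type I keratin of basal and injured epithelium, was 1049.9 ± 88.5 units with Dox and 2941 ± 66.4 without (SD, n = 4) in MYC cells, a change of −1.49, and changed by −1.10 in VM and −1.40 in VIM cells. Its call was lost in VM cells with TMM and in VM and VIM cells with quantile normalization. Of 9 other type III and IV genes, 9, 7 and 5 were tested. The neurofilament gene Nefh rose in all 3 lines, by 2.57, 2.41 and 4.21, and in VIM cells was 70.5 units with Dox and 2.89 without. Without Dox its mean was near the floor in VIM cells (floors 2.49 to 3.34 units) and in VM cells (2.47 units, floors 1.16 to 2.65), so the sizes in these lines depend on the pseudocount. The same holds for Ina in VM cells, with a mean of 1.98 units without Dox. Also rising were Nefl in MYC cells and Ina in VM and VIM cells, and falling were Gfap in MYC and VM cells, Prph in MYC and VIM cells and Synm in MYC cells, the last not after quantile normalization. Krt12, Krt14, Krt25, Gfap and Nefl had a mean under 50 units in every group, and the SE of their changes was 0.27 to 0.40. Their calls thus rest on low signal.

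Of the 2 B-type lamins, Lmnb1 rose in VM cells by 1.13, from 1528 to 3347 units, and in VIM cells by 1.03, from 1394 to 2847, while 0 passed in MYC cells. Of 14 other nuclear envelope genes, Syne1, a giant linker of nucleus and cytoskeleton, fell in all 3 lines, with log2 changes of −1.32, −2.46 and −1.02 in MYC, VM and VIM cells. The VIM call was lost with a pseudocount of 10, TMM (−0.86) and quantile normalization, and without VIM cells with Dox replicate 3 (−0.94) or VIM cells without Dox replicate 1 (−0.96) or 4 (−0.98). Lbr, the lamin B receptor, rose in VM cells by 1.09 and in VIM cells by 1.27, and Sun2 fell there, with −1.31 and −1.40. Of 17 linker and desmosome genes, 17, 16 and 17 were tested, of which 1 rose (Dsp) and 5 fell (Eppk1, Jup, Pkp1, Pkp2 and Dsc2) in MYC cells, 0 rose and 3 fell (Dst, Jup and Pkp1) in VM cells, and 0 rose and 2 fell (Jup and Pkp2) in VIM cells, beside 15%, 18.9% and 16.6% of all genes that fell, so that the counts in VM and VIM cells were no higher than the share over all genes. Pkp2 did not pass in MYC cells with TMM. Jup, plakoglobin of desmosomes and adherens junctions, fell with log2 changes of −1.25, −1.22 and −1.49, and was 1154 units with Dox against 3241 without in VIM cells. In VM cells the calls for Jup (−0.98), Dst and Pkp1 were lost with TMM, that for Pkp1 also with quantile normalization, and that for Dst without VM cells with Dox replicate 4 (−0.99) or VM cells without Dox replicate 2 (−0.94). The median changes in MYC, VM and VIM cells were −0.09, −0.93 and 0.10 for other keratins, −0.82, −0.57 and −0.21 for type III and IV genes, 0.85, 0.92 and 0.99 for B-type lamins, −0.68, −0.38 and −0.41 for linkers and −0.15, −0.16 and −0.27 for nuclear envelope genes. Between tumour genotypes 0 genes of these lists passed by limma.

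Genes with a pattern like that of a member were ranked by Pearson's r of mean log2(value+1) over the 10 groups, among 12047 genes with enough signal, as a description in which tissue and culture form shared points. Basp1 (0.992), Grem1 (0.991) and Tmem132a (0.989) were most like Vim, and Tnk2 (0.996), Col5a1 (0.992) and 6330407J23Rik (0.989) most like Nes. For Des they were Slc39a8 (0.996), Ace (0.992) and Zfp641 (0.991), for Krt7 Cds1 (0.941), Frmd4b (0.920) and Rnf183 (0.920), and for Krt8 Slc25a20 (0.988), Aifm2 (0.963) and Pgm3 (0.961). For Krt18 they were Lpcat2 (0.980), Mmp14 (0.973) and Zfp820 (0.970), for Krt19 Cdkn1a (0.942), Gm5523 (0.934) and Gorab (0.931), and for Krt20 Prickle3 (0.961), Zfp580 (0.956) and 6330406I15Rik (0.941). For Krt80 they were Eya2 (0.964), BC100451 (0.931) and Sgce (0.919), and for Lmna Tjap1 (0.982), Phf23 (0.981) and Slc39a6 (0.979). Among the members, Vim and Nes were most alike (0.967), Krt8 and Krt18 had 0.742, Krt18 and Krt20 0.742, Krt19 and Krt20 0.064, and Des and Lmna were least alike (−0.798).

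Promoter sequences of 300 bases, from 250 before to 50 after the gene start, were read from RefSeq (GRCm38.p6) for 8 of 10 members, Lmna with 2 entries, while Krt19 and Krt80 are named only. Among members none held CACGTG, the core bound by MYC and present in 7.15% of 32851 promoters, or ACGTG, the core bound by hypoxia-inducible factors and present in 19.6%; the latter lies within the former. TATAAA on either strand, chosen after seeing the sequences, was found in Vim, Krt20 and Krt8 and in 13.6% of all promoters. The promoters shown are those of Vim and Krt20, which fell with Dox in all 3 lines, and of the partners Krt8 and Krt18. They run 5′ to 3′ in the direction of transcription, with TATAAA matches in capitals, which in Krt8 are 2 overlapping matches on opposite strands. A match is a description of letters only.
Vim (chr2:13574061-13574360, plus strand): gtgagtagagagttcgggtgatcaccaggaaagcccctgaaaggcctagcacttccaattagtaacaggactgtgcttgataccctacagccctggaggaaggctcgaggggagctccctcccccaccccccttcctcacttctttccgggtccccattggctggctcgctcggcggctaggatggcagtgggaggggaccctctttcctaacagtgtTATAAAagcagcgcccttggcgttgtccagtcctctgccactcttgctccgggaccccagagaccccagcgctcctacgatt
Krt20 (chr11:99438104-99438403, minus strand): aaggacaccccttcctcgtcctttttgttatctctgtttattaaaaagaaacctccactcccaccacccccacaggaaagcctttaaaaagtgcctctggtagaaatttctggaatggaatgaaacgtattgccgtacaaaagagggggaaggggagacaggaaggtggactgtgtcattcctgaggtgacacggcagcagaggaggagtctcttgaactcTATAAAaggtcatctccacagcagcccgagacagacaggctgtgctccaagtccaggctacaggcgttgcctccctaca
Krt8 (chr15:102004293-102004592, minus strand): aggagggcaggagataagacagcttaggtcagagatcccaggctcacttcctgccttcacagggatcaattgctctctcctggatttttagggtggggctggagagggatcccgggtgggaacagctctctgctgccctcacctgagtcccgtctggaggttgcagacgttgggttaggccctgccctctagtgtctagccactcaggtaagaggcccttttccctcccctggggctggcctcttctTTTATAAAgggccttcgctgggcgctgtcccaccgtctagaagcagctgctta
Krt18 (chr15:102027966-102028265, plus strand): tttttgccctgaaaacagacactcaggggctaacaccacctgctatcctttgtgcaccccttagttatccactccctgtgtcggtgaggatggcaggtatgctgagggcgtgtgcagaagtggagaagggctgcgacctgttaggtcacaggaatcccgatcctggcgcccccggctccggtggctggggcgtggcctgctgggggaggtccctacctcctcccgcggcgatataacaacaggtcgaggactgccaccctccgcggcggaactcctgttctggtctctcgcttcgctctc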

How the data were processed

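RNA of 38 mouse libraries was prepared with a TruSeq Stranded mRNA kit and sequenced as paired reads of 75 bases. Values of unit signal were deposited: the authors mapped reads to mm9 with MapSplice, handled alignments with Picard 1.64, SAMtools and UBU and estimated gene levels with RSEM, and libraries were then brought to the same upper quartile, 1000 units. These are not read counts. Estimated reads are the value over the step of low values, 8.22 to 36.6 M reads per library, and intervals and floors cover counting error only.

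From there, log2(value+1) was tested in limma 3.58.1 (R 4.3.3) with an intensity trend, over genes above 0 in at least 4 libraries for cells or 2 values for tumours, with the libraries of mouse 2983 averaged. Python 3.11.15, numpy 2.4.6, pandas 2.3.3 and matplotlib 3.10.9 were used, and the fits were tested on simulated data. The members, gene lists and markers were chosen with earlier results of these data known. Named genes were the members, Myc, Vhl and Cdkn2a, up to 3 genes per partner list and comparison by size of change, and the 3 genes most like each member, and other partner genes were named where 5 or fewer passed, after their values were seen. Alternatives were pseudocounts of 0.1 and 10, no filter, a mean of at least 10 units, TMM, quantile normalization, voom on estimated reads, a replicate block and leaving out each library. Voom on estimated reads (in place of whole reads, which could not be recovered in every library), each library of mouse 2983 alone, TATAAA and the search for genome copies were chosen after seeing the data. Positions are mm9 and promoters GRCm38.p6; the protein table was not used here. The result of 1 marker list is not reported here.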

Additional observations from a re-analysis of the deposited data

Results flagged for a closer look

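Of 65 groups of 4 or 5 libraries checked for a value far from the others, 1 was found, and chance gives about 1 in 20. It was Des in kidney replicate 5, at 272 units against 123 to 149.8 in the other kidneys; that library was also highest in the pericyte and smooth muscle sum, whose part in it was not tested.

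The change with Dox differed between lines by limma's interaction test in 18 cases, on the log2(value+1) scale. Over all genes 33.3%, 46.2% and 47.6% passed for VIM against VM, VM against MYC and VIM against MYC, so nothing is read from the number of cases. For VIM against VM cells the differences were 0.38 for Vim, −0.37 for Nes, −2.18 for Krt7, 1.53 for Krt8, −0.44 for Krt80, −1.76 for Krt18 and −0.44 for Krt19. For VM against MYC cells they were −0.44 for Vim, 0.28 for Nes, 3.09 for Krt7, −2.67 for Krt8, 0.34 for Krt80 and 1.39 for Krt18. For VIM against MYC cells they were 0.91 for Krt7, −1.14 for Krt8, −0.37 for Krt18, −1.68 for Krt20 and 0.21 for Lmna. After quantile normalization, Krt7, Krt18, Krt20 and Lmna for VIM against MYC and Nes for VM against MYC no longer passed. Krt7 for VIM against MYC was also lost with a pseudocount of 0.1 and with TMM. Krt18 signal in VM cells was near the floor, so its differences from VM cells do not show how it responds to Dox there. Each genotype is 1 line, and for the differences from MYC cells line and handling cannot be told apart.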

How the results depend on the processing

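Of the members' tested values under the alternatives, 1469 kept direction and side of the threshold, 24 came to pass, 24 no longer passed and 43 turned direction; the cause was not tested. Values are log2 differences unless called counts. Vim, Krt8 and Krt20 fell in VM cells under each alternative that tested them (Krt20 was left out by the mean of at least 10 units), and members that passed numbered 2 to 7 in MYC, 2 to 4 in VM and 6 to 7 in VIM cells. Over all genes 1936 to 3202 passed in MYC, 2461 to 3674 in VM and 2404 to 3503 in VIM cells. Genes tested numbered 12349 to 16764, 11704 to 16314 and 11659 to 15775 in these lines. Depth limits Des, Krt7, Krt18, Krt19 and Krt20, which had libraries at or under the floor.

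With a pseudocount of 10, genes apart with Dox numbered 1651 (VIM against VM), 2310 (VM against MYC) and 2195 (VIM against MYC), genes passing with Dox in MYC cells 1936 and in VIM against VM tumours 26. The difference in Dox change was 0.75 for Krt20 in VM against MYC, beside −0.43 in the main fit, and 0.0282 for Cdkn2a in VIM against MYC. With a pseudocount of 0.1, Des and Krt19 for VM against MYC were −0.28 and 0.93 and Krt19 for VIM against MYC 0.50.

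With TMM, the Dox change was 0.0362 for Krt80 and 0.13 for Lmna in VM cells and 0.0711 for Lmna in VIM cells, the VIM against VM difference of Lmna −0.11, and Krt18 in VIM against MYC tumours 0.0141. With quantile normalization, 2 members passed in MYC cells and 2 for VIM against MYC; Vhl and Cdkn2a changed by 0.20 and 0.42 in VIM cells; Krt20 and Lmna for VM against MYC were 0.0694 and −0.0173; Vim, Lmna, Vhl and Cdkn2a for VIM against MYC were 0.0049, −0.00157, 0.35 and 0.48; Krt18 and Krt20 in VIM against MYC tumours were 0.0704 and −0.0494.

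With a mean of at least 10 units, 24 genes passed in VIM against VM tumours. With voom on estimated reads 15 did and 0 in VIM against MYC tumours, where Krt20 was −0.18, and Krt19 for VM against MYC cells was 0.36. With every library as a replicate, 33 genes passed in VM against MYC and 7 in VIM against MYC tumours.

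Leaving out 1 library or mouse, members apart from kidney in MYC tumours ranged from 4 to 9, and Krt18 in VM cells from −0.0466 to 0.69. Interactions ranged from −0.0348 to 0.0731 for Lmna (VIM against VM), −0.56 to 0.0546 for Krt19 (VM against MYC), and −0.37 to 0.0667 for Vhl and −0.0868 to 0.0798 for Cdkn2a (VIM against MYC). In VIM against VM tumours, 2 (without VIM tumour replicate 1) to 45 genes passed and Nes ranged from −1.14 to 0.57. In VM against MYC tumours, 0 to 10 genes passed (10 without mouse 2983), and ranges were −1.81 to 0.00110 for Vim, −1.99 to 0.78 for Nes, −2.33 to 0.61 for Krt18, −0.53 to 5.51 for Krt19 and −0.20 to 0.66 for Lmna. In VIM against MYC tumours, 0 (without MYC tumour replicate 1) to 16 genes (without mouse 2983) and 0 to 1 members passed, and ranges were −1.06 to 0.76 for Vim, −2.28 to 0.50 for Nes, −1.56 to 1.38 for Krt18, −0.55 to 0.82 for Krt20, −0.36 to 1.01 for Krt80 and −0.0452 to 0.94 for Myc. With 1 MYC mouse left, that sample is assumed to vary like the others.

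Replicate numbers did not pair the samples: same-numbered libraries had a mean correlation of −0.184 in VM and 0.0154 in VIM cells. With the replicate block, 3572 genes passed in VM cells, 3397 in VIM cells and 4897 for VIM against VM, beside 3554, 3396 and 5053, and 3, 7 and 7 members passed.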
